A study of Mus musculus with 29 samples.

Results

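Dbf4, Top3a, Asf1a and Tpx2 are 4 of the 8726 genes named on in-house printed oligonucleotide arrays that compared the hypothalamus of mice given tumour cells with that of mice given saline. They were picked as genes of DNA replication and chromatin assembly and were chosen by their tumour over PBS ratios in these data, so those ratios are described here and not tested. Each array carried RNA of both groups in 2 colours. One group was 8-week-old female Balb/c mice injected s.c. with 100000 cells of 4T-1, a transplantable mouse mammary carcinoma line, in 100 µl PBS. The other was mice of the same strain, sex and age that received 100 µl PBS. Tissue was taken 18, 72 or 192 h later. The series holds 29 arrays of 13 biological replicates on 5 prints of the array. The genes were chosen on prints 3 to 5 and are described there, on 16 arrays of 9 replicates, 3 at each time. These are replicates 3, 4 and 5 at 18 h and replicates 1, 3 and 4 at 72 h and at 192 h. Replicate 1 of 72 h and of 192 h was poly(A) RNA on 1 array each, with tumour RNA in Cy5. The other replicates were total RNA on 2 arrays with the dyes exchanged. All these arrays of 18 h were of print 5. At 72 h replicate 1 was on print 4 and replicates 3 and 4 on print 5. At 192 h replicates 1, 3 and 4 were on prints 3, 4 and 5. The times were thus not balanced over print or RNA type.

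DNA is copied once per cell cycle, from origins that are loaded with the MCM helicase in G1 and fired in S phase by cyclin-dependent kinases and by Cdc7 with its activator Dbf4. Behind the fork, histone chaperones such as Asf1 hand histones to the assembly factors that rebuild nucleosomes, and topoisomerases undo the links left between the strands. Most cells of the adult hypothalamus are postmitotic neurons and glia, while some glial precursors and tanycytes still divide. Top3a and Asf1a also act outside S phase, in mitochondrial DNA maintenance and in replication-independent histone deposition, whereas Tpx2 is best known from the mitotic spindle.

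All values are log2 ratios of tumour over PBS, so that 0 is no difference. This direction is likely and not settled, because the files do not tie the scanner channels to a dye, and their order was taken from the labels. On the 16 arrays 14.8% to 83.0% of the spots gave a usable ratio, and no gene passed the test at any time (limma, Benjamini-Hochberg adjusted p 0.05, percent called 0%). The tested genes, those with a ratio in all 3 replicates of a time, numbered 1444 at 18 h, 3600 at 72 h and 3269 at 192 h. The smallest adjusted p was 0.417, 0.460 and 0.599 at these times (limma), and 87, 200 and 90 genes had an unadjusted p under 0.05. The labels do not say how many animals a replicate holds, and p-values cover the spread of these replicates, which may in part be technical. The probe lies somewhere in the gene's transcript, and its exon or UTR was not analysed here.

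How well a gene was measured differed among the 4. Dbf4 gave a ratio on 13 of 16 arrays, Asf1a on 11, Top3a on 9 and Tpx2 on 5, against a median of 9 over all genes. Dbf4 has 2 spots where the other 3 genes have 1, and an array was counted if either spot gave a ratio. On the 13 arrays of prints 3 and 5 its spot 1 gave a ratio on 6 and its spot 2 on 10. Tpx2 was measured above local background in the PBS RNA on 8 arrays and in the tumour RNA on 11, where the median gene had 12 and 12. By dye it was measured in Cy3 on 12 arrays and in Cy5 on 7. The background-corrected signal of the 4 genes was low. For each array the scan with the highest signal over local background was taken. In Cy3 the median over arrays was 0.828 times the local background for Dbf4 spot 1 and 2.74 times for Dbf4 spot 2. It was 0.878 times for Top3a, 1.15 times for Asf1a and 0.840 times for Tpx2. In Cy5 the medians were 1.28 and 1.01 for Dbf4 spots 1 and 2, 1.21 for Top3a, 1.29 for Asf1a and 0.844 for Tpx2. Fewer cells that express a gene and less of its RNA per cell cannot be told apart in such bulk tissue.

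Dbf4 encodes the regulatory subunit of the Dbf4-dependent kinase, which binds Cdc7 and lets it phosphorylate the MCM helicase at licensed origins. The gene lies at chr5:8396969-8422725 (GRCm38.p6), and its accession NM_013726 was spotted at 2 places on each print. Its mean log2 ratio was -0.02 ± 0.09 (SD, n = 3) at 18 h, 1.50 ± 0.60 (n = 3) at 72 h and 0.43 ± 0.96 (n = 3) at 192 h. The value at 72 h is a 2.83-fold difference and ranked 2 of 3600 genes from the highest. These means contain a correction for the dye that was larger than the ratios themselves, and the arrays are therefore given one by one.

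At 18 h the Dbf4 ratio as measured was -0.37 in replicate 3 with tumour RNA in Cy5 and 0.39 with tumour RNA in Cy3. In replicate 4 it was -3.87 and 3.63, and in replicate 5 -2.46 and 2.55. These are means over the spots that gave a ratio on an array. Their sign turned with the dye in all 3 replicates, and the mean of each pair was 0.01, -0.12 and 0.04. In replicate 3 the pair did not hold the same spots, and spot 1, the one measured in both orientations, read 2.00 with tumour RNA in Cy5 and 0.39 with tumour RNA in Cy3, a mean of 1.19 with no change of sign. At 72 h the arrays with tumour RNA in Cy5 read -0.05 in replicate 1, -1.25 in replicate 3 and -0.89 in replicate 4, and the array of replicate 3 with tumour RNA in Cy3 read 3.26. At 192 h the ratios were -1.61 in replicate 1 and -0.94 in replicate 4, both with tumour RNA in Cy5, and 1.62 in replicate 3 with tumour RNA in Cy3. Over all times the ratio as measured was below 0 on 8 of 8 arrays with tumour RNA in Cy5 and above 0 on 5 of 5 arrays with tumour RNA in Cy3.

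The dye effect of a probe is its mean log2 Cy5 over Cy3 ratio in the replicates hybridized in both orientations. For Dbf4 it was -2.22, from 4 such pairs that ranged from -3.75 to -0.38. Only 17 of 7938 probes had a dye effect of larger size, and the median size over all probes was 0.118. In a replicate with both orientations the effect cancels only where the same spots were measured in both, which was not so in replicate 3 of 18 h and of 72 h. In a replicate with 1 array it is carried into the value in full, so replicate 1 of 72 h moved from -0.05 to 2.17, replicate 4 of 72 h from -0.89 to 1.33 and replicate 4 of 192 h from -0.94 to 1.28. Replicate 3 of 72 h, which had both orientations, stood at 1.01 with or without the correction, from spots 1 and 2 on one array and spot 2 alone on the other. Without the dye correction the Dbf4 mean was 0.02 ± 0.95 (SD, n = 3) at 72 h, rank 1833 of the same 3600 genes, and -0.31 ± 1.71 (n = 3) at 192 h.

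**Figure D1:**
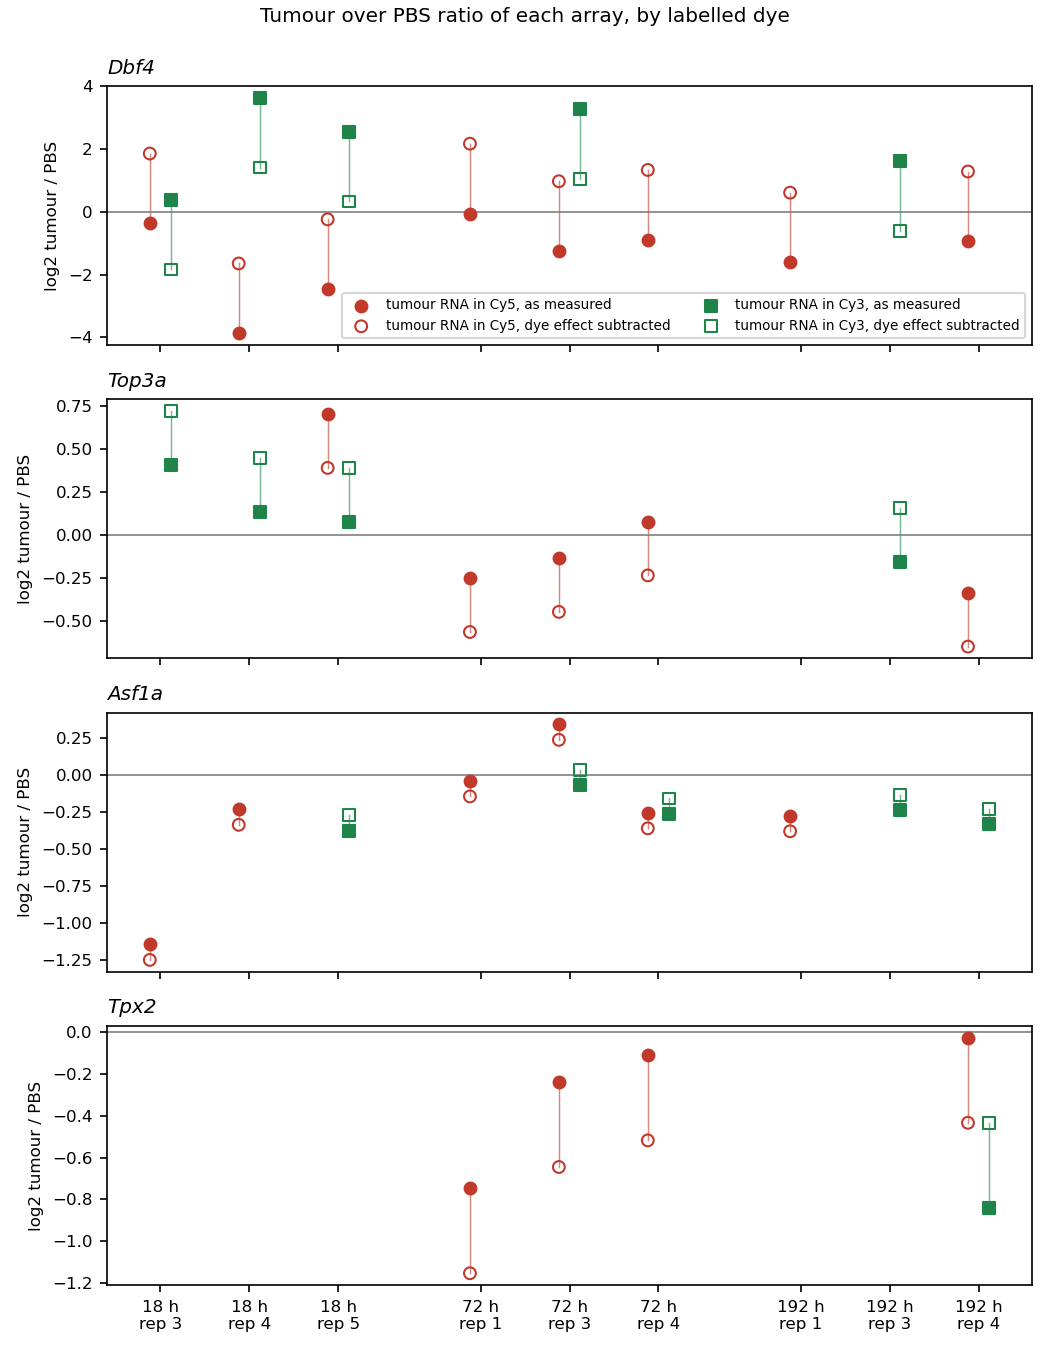
Log2 tumour over PBS of every array of prints 3 to 5 that gave a ratio, by time and replicate (x axis), for each gene, as measured (filled) and after the dye effect was subtracted (open), with a line joining both values of an array. For Dbf4 every filled circle (tumour RNA in Cy5) lies below 0 and every filled square (tumour RNA in Cy3) above 0, and at 72 h all 4 open symbols lie above 0.

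The 2 spots of Dbf4 did not read the same dye ratio. On the 13 arrays of prints 3 and 5, spot 2 gave a ratio on 10, and its log2 Cy5 over Cy3 was below 0 on all 10, from -3.87 to -1.88 with a median of -2.70, whichever RNA was in Cy5. Spot 1 gave a ratio on 6 of these arrays, from -0.39 to 2.00 with a median of 0.08. On the 5 arrays where both spots were measured they differed by 3.01 on average. This was the largest difference among the 48 accessions with 2 spots that were both measured on at least 3 arrays, for which the median size was 0.202. Where more than 1 scan of an array gave a ratio, the scans agreed far more closely, with a range of at most 0.617 for spot 2 and 0.394 for spot 1. Some values came from 1 scan and show no such agreement. For spot 1 these were replicate 3 of 72 h and replicates 1 and 4 of 192 h, and for spot 2 replicate 3 of 18 h.

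**Figure D2:**
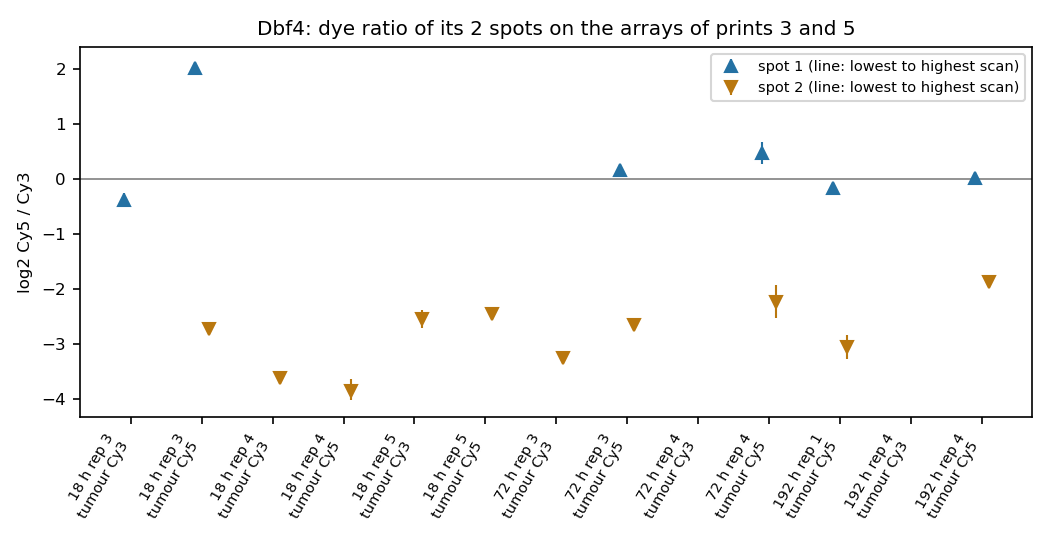
Log2 Cy5 over Cy3 of the 2 Dbf4 spots on each of the 13 arrays of prints 3 and 5, with vertical lines from the lowest to the highest scan. Spot 2 lies between -3.87 and -1.88 on every array where it gave a ratio, in both dye orientations, and spot 1 lies between -0.39 and 2.00.

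A single dye effect for both spots mixes these readings. When each spot was corrected by its own dye effect, a setting chosen after seeing the data, the Dbf4 ratio of replicate 3 of 18 h moved from 0.01 to 0.98, and the ratio at 72 h was 0.04 in replicate 3 and 0.24 in replicate 4, a mean of 0.14 ± 0.15 (SD, n = 2). Replicate 1 dropped out, because its print had no pair of arrays from which a dye effect of that spot could be taken. With the same setting the mean was 0.30 ± 0.59 (n = 3) at 18 h and -0.14 ± 0.48 (n = 2) at 192 h. Spot 2 could also be followed in both orientations within a replicate, which needs no correction. Its mean tumour over PBS ratio was -0.12 and 0.04 in replicates 4 and 5 of 18 h and 0.30 in replicate 3 of 72 h, and spot 1 gave 1.19 in replicate 3 of 18 h. The 2.83-fold value at 72 h was thus not found when spots were kept apart, and what the spots differ in was not tested.

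Top3a encodes DNA topoisomerase III alpha, which passes single strands through each other and, with the BLM helicase and Rmi1, resolves joined recombination intermediates in the nucleus, while another form of the enzyme separates mitochondrial DNA. It lies at chr11:60738209-60777365 and has 1 spot per print. At 18 h its log2 ratio was 0.72, 0.44 and 0.39 in replicates 3, 4 and 5, a mean of 0.52 ± 0.18 (SD, n = 3) and a 1.43-fold difference. At 72 h it was -0.57, -0.45 and -0.24 in replicates 1, 3 and 4, a mean of -0.42 ± 0.17 (n = 3). All 3 values at 18 h lay above 0, as for 6.23% of the genes tested, and all 3 at 72 h below 0, as for 11.9%. At 192 h replicates 3 and 4 gave 0.16 and -0.65, on both sides of 0, and replicate 1 gave no ratio.

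The dyes were not balanced behind these Top3a values. Of the 4 arrays with a ratio at 18 h, 3 had tumour RNA in Cy3, and all 3 arrays with a ratio at 72 h had tumour RNA in Cy5. The dye effect of 0.31 rests on 1 pair of arrays, replicate 5 of 18 h, and 22.4% of the probes likewise had 1 pair. The arrays of that replicate had the lowest shares of usable spots, 21.9% and 14.8%, and Top3a was read in 1 scan on each. Its log2 Cy5 over Cy3 there was 0.70 with tumour RNA in Cy5 and -0.08 with tumour RNA in Cy3. Without the correction the 18 h ratios were 0.41, 0.13 and 0.39, still above 0 in each replicate, with a mean of 0.31 ± 0.15 (n = 3). The 72 h ratios were -0.25, -0.14 and 0.08, a mean of -0.11 ± 0.17 (n = 3) with replicates on both sides of 0. Loess within print blocks, which gave 0.20 ± 0.11 at 18 h and -0.12 ± 0.20 at 72 h, and median centring, which gave 0.31 ± 0.03 and 0.01 ± 0.29, also moved both means towards 0.

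Asf1a encodes a chaperone of histones H3 and H4 that delivers them to CAF-1 behind the replication fork and to HIRA outside replication. It lies at chr10:53596961-53609225 and has 1 spot per print. Its log2 ratio at 18 h was -1.25 in replicate 3, -0.34 in replicate 4 and -0.27 in replicate 5, a mean of -0.62 ± 0.54 (SD, n = 3). PBS was thus 1.54-fold above tumour, and replicate 3 stood furthest from 0. Without replicate 3 the mean was -0.31, and the 18 h median over all genes, -0.09, was -0.02 without that replicate.

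At 72 h the Asf1a ratios were -0.15, 0.13 and -0.26 in replicates 1, 3 and 4, a mean of -0.09 ± 0.20 (n = 3) with values on both sides of 0. At 192 h they were -0.38, -0.14 and -0.23, a mean of -0.25 ± 0.12 (n = 3), all below 0, as for 12.8% of the genes tested. All 3 replicates were below 0 at 18 h too, as for 19.5% of the genes. The Asf1a means moved little with the dye correction. Its dye effect was 0.10 from 2 pairs, both of 72 h, which gave 0.20 and 0.00316. Without the correction the means were -0.58 ± 0.49, -0.06 ± 0.20 and -0.28 ± 0.05 (n = 3 each). At 18 h and at 192 h each replicate gave a ratio on 1 array, so no dye effect could be taken from those times. As measured, 10 of its 11 array ratios were below 0, the exception being 0.34 in replicate 3 of 72 h with tumour RNA in Cy5. The mean at 192 h was above 0 with loess within print blocks, at 0.12 ± 0.28, and in the authors' deposited value table, whose log base is unknown, at 0.02. The values of that table had no dye effect subtracted.

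Tpx2 encodes a microtubule-associated protein that binds and activates the Aurora A kinase and nucleates spindle microtubules. In proliferating tissue it serves as a marker of cells in G2 and mitosis. It lies at chr2:152847964-152895321 and is represented by accession AK011311, with 1 spot per print. It gave no ratio on the 6 arrays of 18 h, where its signal was measured in Cy3 on 5 and in Cy5 on 2. By RNA, it was measured there in tumour on 5 arrays and in PBS on 2. At 72 h the log2 ratios were -1.15, -0.64 and -0.52 in replicates 1, 3 and 4, a mean of -0.77 ± 0.34 (SD, n = 3), with PBS 1.71-fold above tumour. At 192 h it could be read in replicate 4 alone, at -0.43 from both orientations.

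All 5 Tpx2 ratios were below 0 as measured, from -0.84 to -0.03. The 72 h values came from 3 arrays that all had tumour RNA in Cy5, and the dye effect of 0.41 from 1 pair of arrays, replicate 4 of 192 h. Subtracting it could only lower the 72 h ratios, and it set both arrays of that pair to their mean of -0.43. The signs after the correction were thus fixed by those as measured. Without the correction the 72 h ratios were -0.75, -0.24 and -0.11, a mean of -0.36 ± 0.34 (n = 3). The replicate furthest from 0 was the poly(A) sample, replicate 1, and without it the corrected mean was -0.58. Over all genes tested at 72 h, 15.9% rested on arrays with tumour RNA in Cy5 alone.

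**Figure D3:**
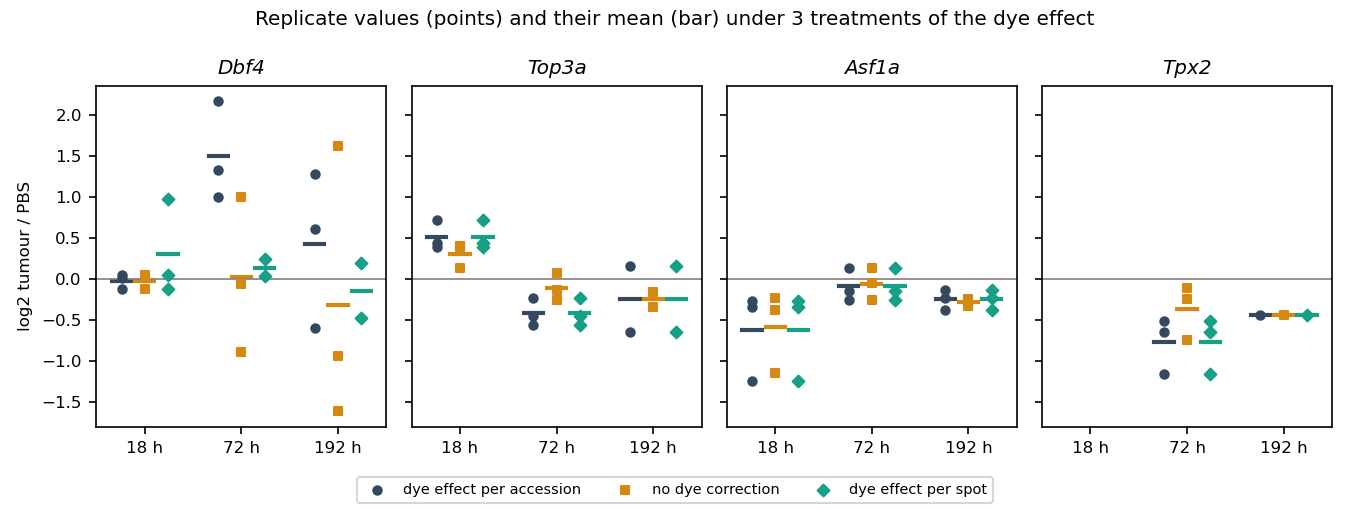
Replicate log2 tumour over PBS values (points) and their mean (bars) of the 4 genes at each time, with 1 dye effect per accession, without dye correction and with a dye effect per spot. The Dbf4 mean at 72 h is 1.50, 0.02 and 0.14 under these settings and the Top3a mean at 72 h -0.42, -0.11 and -0.42, while the Asf1a mean at 72 h is -0.09, -0.06 and -0.09.

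With the dye effect of each accession subtracted, the 4 genes did not share a direction at 72 h, where each had 3 values. Dbf4 stood above 0 in every replicate, as did 15% of the genes tested, Top3a and Tpx2 below 0 in every replicate, and Asf1a on both sides. Without the correction the Dbf4 values at 72 h were -0.05, 1.01 and -0.89, on both sides of 0, as were those of Top3a. The counts of opposite signs moved with it too. Dbf4 and Top3a had opposite signs in 6 of the 8 replicates in which both were measured, and in 4 of 8 without the correction. For Dbf4 and Asf1a the counts were 6 of 9 and 3 of 9, and for Dbf4 and Tpx2 4 of 4 and 1 of 4. For Top3a and Tpx2 they were 0 of 4 and 1 of 4. Top3a and Asf1a had opposite signs in 5 of 8 either way, and Asf1a and Tpx2 in 1 of 4 either way. No share over other gene pairs is given beside these counts. Ordered by the corrected mean at 72 h, Tpx2 at -0.77 and Top3a at -0.42 had overlapping replicates, as had Top3a and Asf1a. The lowest corrected Dbf4 value, 1.01, lay above the highest value of the other 3 genes, but with a dye effect per spot the lower Dbf4 value, 0.04, lay below the Asf1a value of 0.13.

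Genes of the same processes were read from 9 lists of 268 genes in all, of which 133 besides the 4 genes were on the arrays. With a value in all 3 replicates, 14 could be tested at 18 h, 51 at 72 h and 36 at 192 h, and none passed (percent called 0% at each time, limma with Benjamini-Hochberg adjustment). An unadjusted p under 0.05 was found for 1 gene at 18 h, 3 at 72 h and 0 at 192 h, against 6.02%, 5.56% and 2.75% of all genes tested. Of the 14 genes at 18 h, 2 had a mean above 0 and the median was -0.14, where 31% of all genes were above 0 and their median was -0.09. At 72 h 30 of 51 were above 0 (median 0.05), beside 54% of all genes (median 0.02). At 192 h 11 of 36 were above 0 (median -0.06), beside 49.4% of all genes (median -0.00193). From 18 to 72 h the mean was higher in 12 of the 12 list genes measured at both times, beside 68.8% of all genes, and none passed the test of this difference, with 1 unadjusted p under 0.05 (5.29% of all genes).

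The counts at 18 h and from 18 to 72 h moved with the scaling. With loess within print blocks 4 of the 14 genes at 18 h and 9 of the 12 from 18 to 72 h were above 0, beside 45.6% and 53.6% of all genes. With median centring 0 of 14 and 12 of 12 were above 0, beside 24.8% and 73.4%. In the values of the authors' deposited table, 3 of 14 and 4 of 10 were above 0, beside 46.4% and 56.8%. No dye effect was subtracted from the values of that table. Without replicate 3 of 18 h, 6 of 15 and 9 of 12 were above 0, beside 46.3% and 56.5%. With total RNA replicates only, which at 18 and 72 h were all of print 5, 11 of 13 were above 0 from 18 to 72 h, beside 69.1%. At 192 h median centring put 18 of 36 list genes above 0.

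Among genes of the replication origin, where Dbf4 acts, 3 were tested at 18 h, 8 at 72 h and 4 at 192 h. Mcm10, which helps activate the loaded helicase, had -0.19 ± 0.02 (SD, n = 3) at 18 h. Mcm7, a subunit of the helicase that the Dbf4-dependent kinase acts on, had -0.26 ± 0.09 at 192 h. Gins4, a subunit of the GINS complex, had 0.40 ± 0.32 at 72 h and 0.06 without the dye correction. Cdc6, a loading factor, had 0.24 ± 0.24 at 72 h and -0.02 without it. None of these passed the test. Mcm6 gave no corrected ratio. Cdc7, Mcm2 and Mcm4 were on the list but not among its 19 genes, besides Dbf4, that are named on the arrays.

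Of genes of the replication fork 0 of 5 had a mean above 0 at 18 h, 8 of 8 at 72 h and 1 of 4 at 192 h, beside 31%, 54% and 49.4% of all genes tested. Without replicate 3 of 18 h, 2 of 5 were above 0 there, and the median of the 5 went from -0.28 to -0.00452. Rpa2, a subunit of the single-strand binding protein RPA, was the list gene of smallest p at 18 h, with -0.41 ± 0.25 (SD, n = 3), an unadjusted p of 0.0132 and an adjusted p of 0.659 (limma). Its mean was 0.06 ± 0.13 at 72 h and -0.09 ± 0.03 at 192 h. Rfc3, of the clamp loader, had -0.71 ± 1.24 at 18 h, with replicates from -2.12 to 0.19. The 8 means at 72 h were small, from 0.04 for Lig1, the ligase that joins Okazaki fragments, to 0.16 for Rpa3. Without the dye correction 6 of 9 fork genes were above 0 at 72 h, and with loess within print blocks 4 of 8.

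Of the topoisomerases and RecQ helicases, the list nearest to Top3a, 0 were tested at 18 h, 4 at 72 h and 5 at 192 h. Rmi1, a partner of Top3a in the same complex, had 0.17 ± 0.34 (SD, n = 3) at 72 h and 0.12 ± 0.36 at 192 h, with replicates on both sides of 0. Top1, which relaxes supercoils ahead of forks and polymerases, had 0.28 ± 0.22 at 72 h, above 0 in all 3 replicates. Top3b, the paralogue of Top3a that also acts on RNA, had -0.04 ± 0.48 at 192 h. Top2b, the topoisomerase II of postmitotic neurons, had -0.09 ± 0.12 (n = 2) at 18 h and 0.13 ± 0.50 (n = 2) at 72 h.

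Histone chaperones and assembly factors numbered 3, 6 and 8 tested genes. Anp32e, which removes the variant H2A.Z from nucleosomes, was the list gene of smallest p at 72 h, with 0.44 ± 0.07 (SD, n = 3), an unadjusted p of 0.0155 and an adjusted p of 0.742 (limma). Ipo4, an importin that carries H3 and H4 with Asf1 into the nucleus, had 0.39 ± 0.23 at 192 h. Rbbp4, the histone-binding subunit of CAF-1, had -0.74 ± 0.43 (n = 2) at 18 h and -0.23 ± 0.48 (n = 3) at 72 h. Hira had -0.06 ± 0.20 at 192 h, and Tlk2, a kinase of Asf1, had -0.35 ± 0.33 (n = 2) at 72 h. Among histone genes H2az1, which encodes H2A.Z, had -0.31 ± 0.18 at 18 h and 0.19 ± 0.21 at 192 h. H1f5, a linker histone, had -0.54 ± 0.25 at 72 h but 0.07 without the dye correction.

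Of spindle and mitosis genes 0 were tested at 18 h, 8 at 72 h and 2 at 192 h. At 72 h Kif4, a chromosome-bound kinesin, had -0.50 ± 0.26 (SD, n = 3) with an unadjusted p of 0.0168, and Kif2c, a kinesin that depolymerizes microtubules, 0.44 ± 0.20 with 0.0252. Neither passed the test (adjusted p 0.742 and 0.772, limma), and Kif2c had -0.05 without the dye correction. Kif11, the spindle motor that works with Tpx2, had -0.08 ± 0.20 at 72 h, and Kif23 had -0.28 ± 0.05 at 192 h. Mki67, the gene of the proliferation antigen Ki-67, was measured in 2 replicates of 72 h, at -0.27 and 0.63. Rrm1, which supplies deoxyribonucleotides, had -0.26 ± 0.14 and Atr, the kinase of the replication checkpoint, 0.29 ± 0.09 at 72 h, the latter at 0.05 without the dye correction.

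**Figure D4:**
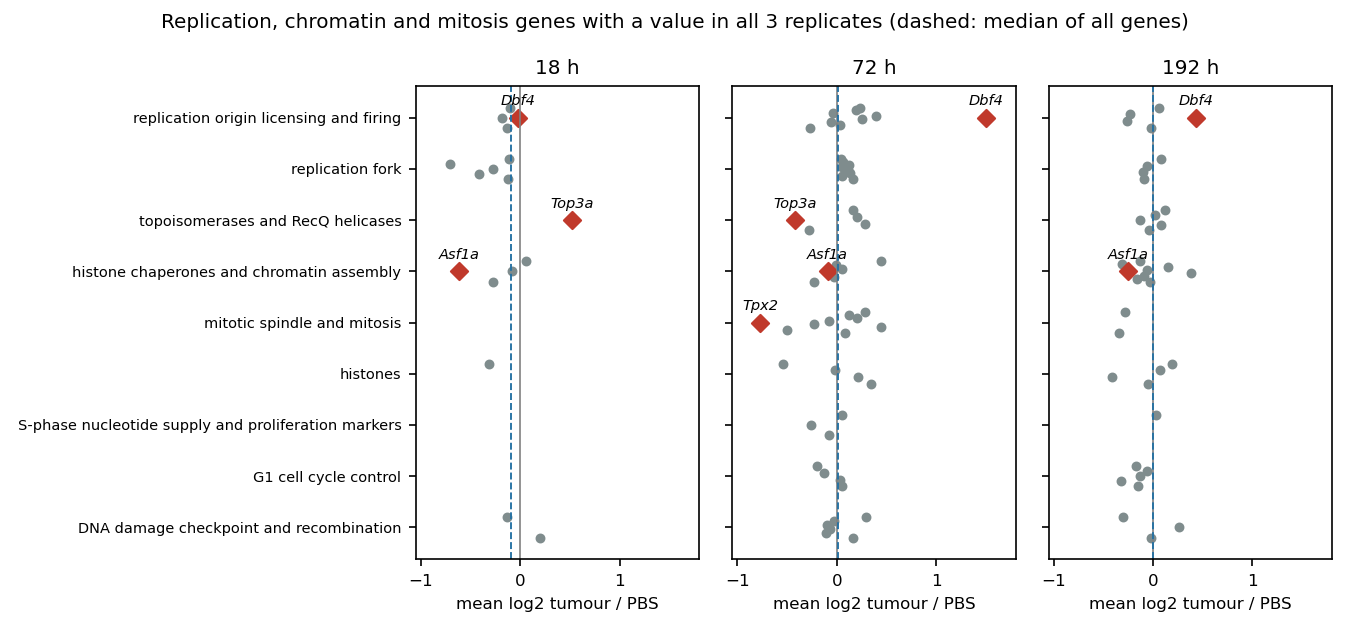
Mean log2 tumour over PBS of each gene with a value in all 3 replicates (grey points), by list and time, with Dbf4, Top3a, Asf1a and Tpx2 as red diamonds and the median of all genes tested as a dashed line. At 72 h the 8 fork genes lie between 0.04 and 0.16, Dbf4 at 1.50 and Tpx2 at -0.77.

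The genes whose ratios ran most like each member were named by Pearson's r over replicates, as a description in which every ratio of a replicate shares its arrays and dyes. Over 9 replicates and 737 genes, Dbf4 was most like 1700006J14Rik (r = 0.92), Id2 (0.90) and Mgrn1 (0.89), and without the dye correction these r were -0.43, -0.17 and -0.06. Over 8 replicates and 876 genes, Top3a was most like Lasp1 (0.90), Phf19 (0.88) and Asb11 (0.84), with 0.89, 0.63 and 0.84 without the correction. Over 9 replicates and 737 genes, Asf1a was most like Psma1 (0.95), Anxa7 (0.94) and Plpp1 (0.92), with 0.96, 0.87 and 0.90 without it. The likeness to Dbf4 was thus gone without the correction, while r for the genes named for Top3a and Asf1a stood at 0.63 or more. All were picked as the highest r of many genes, and the uncorrected r come from the same arrays. Tpx2 had 4 values, too few for this.

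The tissue was checked against markers. Oxt, the oxytocin gene of hypothalamic neurons, was measured in PBS RNA on 16 of 16 arrays, and Hcrt, Gal and Cartpt on 14 each. Measurement above background did not set the tissue apart, since the T cell gene Cd3e was measured in PBS RNA on 11 arrays. No marker gene of neurons, glia, leukocytes, vessels, ependyma, pituitary or the injected line passed the test, and between 0 and 5 genes of a list could be tested at a time. The leukocyte gene Cd37 had 0.93 ± 0.32 (SD, n = 3) at 72 h, with an unadjusted p of 0.000304 and an adjusted p of 0.460 (limma), and 0.39 without the dye correction. It was the 1 of 3 leukocyte genes tested at 72 h with a mean above 0, and the list's median was -0.04, with -0.15 the lowest. Of the epithelial genes of the injected line, 5 were on the arrays and 1, Krt19, was tested at 72 h, at 0.16 ± 0.57. The part of other cell types in the ratios of the 4 genes was not tested.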

How the data were processed

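The members and the gene lists were chosen with earlier results of these data known. Hypothalamus RNA of tumour-injected and PBS-injected mice was compared on 2-colour arrays, each scanned 3 times. Per the file headers, the deposited intensities are corrected for local background, and a deposited saturation factor, a fraction, marks saturated spots. The authors' deposited value tables, taken as a score of unknown log base, hold a log ratio per spot. They were used without subtracting a dye effect. They are centred (column medians -0.00675 to 0.0109), correlated with the ratios used here at 0.403 to 0.876 and had 0.288 to 0.670 of their spread.

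The work used limma 3.58.1 (R 4.3.3). A spot was dropped where either channel carried a flag, was saturated or had an intensity of 0 or less. Loess (span 0.3, 4 iterations) was run on every scan. Scans, then spots of an accession, were averaged. The dye effect, from the 7 replicates with both orientations (7938 probes, SD 0.301, 1778 probes from 1 pair), was subtracted, the sign was set so that tumour is the numerator, and the arrays of a replicate were averaged. A gene was its brightest accession; 11 accessions with several symbols were not named. One mean per time was fitted with the spread shared over 5184 genes, and two-sided p were adjusted by Benjamini-Hochberg within a comparison. The fit was tested on simulated ratios. The number of arrays limits the precision.

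Besides the members, the text names per pathway list and time the gene of smallest p with 1 sign in all 3 replicates, direct partners of the members and the 3 most alike genes per member. Of the marker genes that this rule gives, it names Cd37 alone. Oxt, Hcrt, Gal and Cartpt are part of a list of 10 hypothalamus markers and were not picked by the rule. Cdc6, Rfc3, Lig1, Kif2c, Mki67, Cd3e and Krt19 were added after their values were seen. Alternatives were no dye correction, normexp (offset 50), other scalings, single scans, saturated spots kept, the authors' table, all 5 prints, other probe and replicate filters, leaving out replicates and a replicate block. A dye effect per spot, single Dbf4 spots, both orientations only and total RNA only were chosen after seeing the data.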

Additional observations from a re-analysis of the deposited data

Results flagged for a closer look

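Top3a stood out because every replicate of 18 h lay above 0 and every replicate of 72 h below 0. Its mean at 72 h minus that at 18 h was -0.93 on the log2 scale. The difference was not tested, since the gene was chosen by these ratios. It falls together with the dyes: 3 of the 4 arrays with a ratio at 18 h had tumour RNA in Cy3 and all 3 at 72 h had it in Cy5. Print and RNA type differ in part too. The lowest 72 h value, -0.57 in replicate 1, came from poly(A) RNA on print 4, and all arrays of 18 h were total RNA on print 5. With total RNA only the 72 h mean was -0.34. Without the dye correction 1 of the 3 replicates of 72 h was above 0.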

How the results depend on the processing

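No gene passed the test for a time or between times under any other setting that was fitted, nor with the replicate number as a block, where 0 passed in each comparison, with 1 exception. Without replicate 3 of 72 h 1 gene passed at 72 h, Tm4sf1, which is in none of the pathway lists, so leaving out replicates gave 0 to 1 gene there. Deviations from the time means correlated at -0.05 to 0.14 between replicates of 1 number and at -0.16 to 0.08 between replicates of different number. These values are too weak to settle whether samples of 1 number were paired. Signal near local background and ratios missing in 1 dye limit all 4 genes, and Tpx2 had no value at 18 h.

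Dbf4 at 18 h was 0.12 with median centring, -0.77 and 0.41 in the first and second scan, -0.55 in the authors' deposited value table, 0.64 on all 5 prints and 0.30 with a dye effect per spot. No dye effect was subtracted from the values of the authors' table, here and below, so they differ from the main values in this too. Spot 1 alone gave 1.19 (n = 1) and spot 2 alone -0.94 ± 1.56 (SD, n = 3), uncorrected. In such values the dye effect stays in full where a replicate gave a ratio in 1 orientation. At 72 h Dbf4 was 0.020 without dye correction, 0.82 in the second scan, -0.10 in the authors' deposited table, 0.14 with a dye effect per spot, 0.19 from spot 1 and -0.97 from spot 2. At 192 h Dbf4 was 1.81 in the first scan and -1.11 ± 2.44 (n = 3) from spot 2, uncorrected.

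Top3a at 18 and 72 h was 0.31 and -0.11 without dye correction, 0.90 and -0.80 with normexp, 0.31 and 0.011 with median centring, 0.20 and -0.12 with loess within print blocks and 0.052 and -0.051 in the authors' deposited table. On all 5 prints it was -0.019 at 18 h. Asf1a was -0.30 at 72 h in the second scan. At 192 h it was 0.12 with loess within print blocks, -0.079 in the third scan, 0.023 in the authors' deposited table and -0.10 on all 5 prints. At 18 h Asf1a was below 0 under the 13 alternatives that gave a value, from -1.16 in the second scan (n = 1) to -0.16 with loess within print blocks. Some of these could not differ from the main value of -0.62. They are the mean of all probes, at least 2 replicates, a dye effect per spot and total RNA only. Tpx2 at 72 h was -0.36 without dye correction, -1.54 with normexp, -1.23 in the first scan (n = 1) and -0.13 in the authors' deposited table. At 192 h it was -1.01 with normexp, -0.063 in the authors' deposited table and 0.20 on all 5 prints. The values on all 5 prints rest on names that are in doubt on prints 1 and 2, where the mean intensities of accessions correlated with those of prints 3 to 5 at 0.034 to 0.15, against 0.55 to 0.59 among prints 3 to 5. Apart from what is built into a setting, the cause of these moves was not tested.

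Leaving out each replicate in turn gave -0.05 to 0.03, 1.17 to 1.75 and 0.00377 to 0.947 for Dbf4 at 18, 72 and 192 h. For Top3a it gave 0.42 to 0.58, -0.51 to -0.34 and -0.65 to 0.16, for Asf1a -0.79 to -0.31, -0.20 to -0.00547 and -0.31 to -0.18, and for Tpx2 at 72 h -0.90 to -0.58.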
